A study of Homo sapiens with 8 samples.

Results

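The mRNAs of 10 genes of the endoplasmic reticulum (ER) were followed across nuclear fractions of HAP1, a human line of leukemia origin that is nearly haploid. The genes encode ER chaperones, protein disulfide isomerases and subunits of the translocon, and they were taken as a fixed list: HSPA5, HSP90B1, CALR, CANX, PDIA3, PDIA4, PDIA6, P4HB, SEC61A1 and SEC61B. Each was located in the deposited tables by its position in the GENCODE annotation of hg38. All 10 were found among the 62727 genes of the short-read table, and all 10 were among the 26066 genes that passed the filter on low values. The list is one of function and its rule uses no measured value, but it was chosen with earlier results of these data known.

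Nuclei were separated with a urea and detergent buffer into a pellet, the chromatin fraction, and a supernatant, the nucleoplasm fraction. Short-read libraries, depleted of ribosomal RNA, were made from 3 cultures for each fraction, and 2 chromatin libraries were sequenced as long reads of direct cDNA on a nanopore instrument. The paper describes no treatment or engineered genetic change of the cells. By design the short-read groups differ by fraction, although their total counts differed too. The long-read libraries also differ from the short-read ones in platform and preparation, with poly(A) tails added to the RNA before priming. The same volume of ERCC standards, a set of synthetic RNAs, had been added to each fraction. No cytoplasmic or membrane fraction was analysed here, so mRNA that left the nucleus and came along with it cannot be told apart from mRNA inside it. Each library pools many cells, so fewer cells with an mRNA and less of it per cell cannot be told apart either.

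Most proteins that are secreted, and many that sit in membranes, are translated on ribosomes docked at the ER, and their mRNAs are held there with the ribosomes. The ER membrane is continuous with the outer membrane of the nuclear envelope, so purified nuclei can carry ER-bound mRNA with them. The growing chain passes through the Sec61 channel and is then bound by chaperones in the ER lumen. Lectin chaperones hold chains that carry sugars, and protein disulfide isomerases form and rearrange disulfide bonds. When unfolded protein accumulates, the unfolded protein response raises the transcription of many of these genes together.

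Total counts recovered from the deposited values ranged from 38895027 to 43804918 in chromatin and from 75737601 to 79523938 in nucleoplasm, so chromatin values rest on fewer counts. These totals come from counts of the authors' assembly program and do not give the number of reads sequenced. Sample titles set the fraction of each library, since a label field named chromatin for all of them. The fraction markers followed the titles: MALAT1 and PVT1, a pair of chromatin-retained noncoding RNAs, were higher in chromatin by 3.09 and 3.11 on the log2 scale, and GAPDH and B2M were lower, with log2 fold changes of -2.35 and -2.11. These 4 directions held under each scaling tried. Of 8 white blood cell markers for the leukemia origin of the line, PTPRC, SPI1, GATA1 and MPO were at 0 in every library. CD14, CD33 and CD34 reached at most 6.59 normalized counts. Only KIT was well detected, and summed over the 8 genes the level was 1418 to 1628 in chromatin and 1770 to 1875 in nucleoplasm. Chromatin replicate 2 stood apart: it gave the lowest chromatin value for 10 of 10 ER genes, against 41.0% of all genes tested and 52.9% of abundant protein-coding genes.

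Transcripts of the 10 ER genes were lower in chromatin than in nucleoplasm in every case. The median log2 fold change of chromatin over nucleoplasm was -1.95, and single genes ranged from -2.17 for SEC61B to -1.18 for SEC61A1. In limma with Benjamini-Hochberg adjustment over all genes tested, 10 of 10 were called lower at an adjusted p under 0.05, beside 45.2% of all genes tested, 57.5% of protein-coding genes and 62.3% of protein-coding genes whose mean normalized count was 1000 or more. With a fold change of more than 4 also required, 4 of 10 were called lower (CALR, PDIA4, PDIA6 and SEC61B), beside 8.47% of all genes, 5.72% of protein-coding genes and 6.65% of the abundant ones. In limma, edgeR and DESeq2 alike, 0 of the 10 were called higher, beside 44.2% of all genes, 30.2% of protein-coding genes and 29.4% of the abundant ones in limma. At an unadjusted p under 0.05, limma placed all 10 on the lower side. For 10 of 10 the highest chromatin library lay below the lowest nucleoplasm library, a separation shown by 46.0% of all genes tested and 63.0% of the abundant protein-coding genes.

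**Figure D1:**
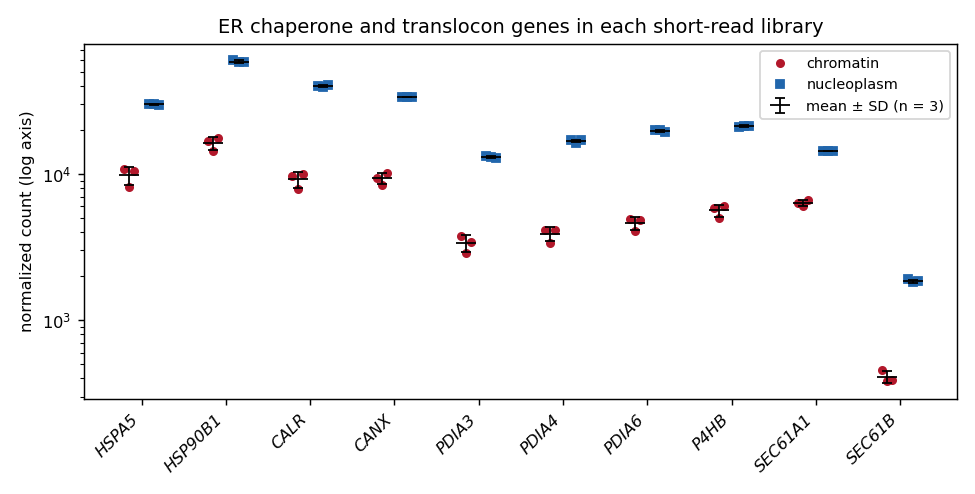
Normalized counts (log axis) of the 10 ER genes in the 3 chromatin and 3 nucleoplasm short-read libraries, with the mean and SD of each fraction. The chromatin and nucleoplasm points of every gene are apart, and the chromatin points spread more widely.

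A normalized count here is the count that StringTie, the authors' assembly program, gave a gene, divided by the size factor of its library. Fold changes were computed on log2(normalized count + 1). The size of the fold change depended on how the libraries were scaled. The median of the 10 genes was -1.48 when every library was given the same total, and 0 of them then passed the 4-fold minimum, beside 3.83% of all genes tested. It was -3.27 when every library was given the same total of ERCC standards, and 10 of them passed, beside 34.5% of all genes tested. Called at any fold, 34.2% of all genes were lower and 54.2% higher with the same total, and 64.8% lower and 22.6% higher with the same ERCC total. The same 2 scalings moved the median of all genes tested from -0.02 to 0.44 and to -1.33, so the ER genes stayed 1.92 to 1.94 below the median of all genes. If ERCC totals are taken as equal, chromatin held 8.08% (SEC61B) to 14.9% (SEC61A1) of the mRNA of each gene found in both fractions together. These shares rest on ERCC totals of 94580 to 122151 normalized counts in chromatin and 37409 to 49777 in nucleoplasm. The paper describes the standards as detected equivalently in the fractions, whereas these totals were higher in every chromatin library than in any nucleoplasm library. Without chromatin replicate 2, the median was -1.85, and 10 and 4 genes were called lower by the 2 rules.

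**Figure D2:**
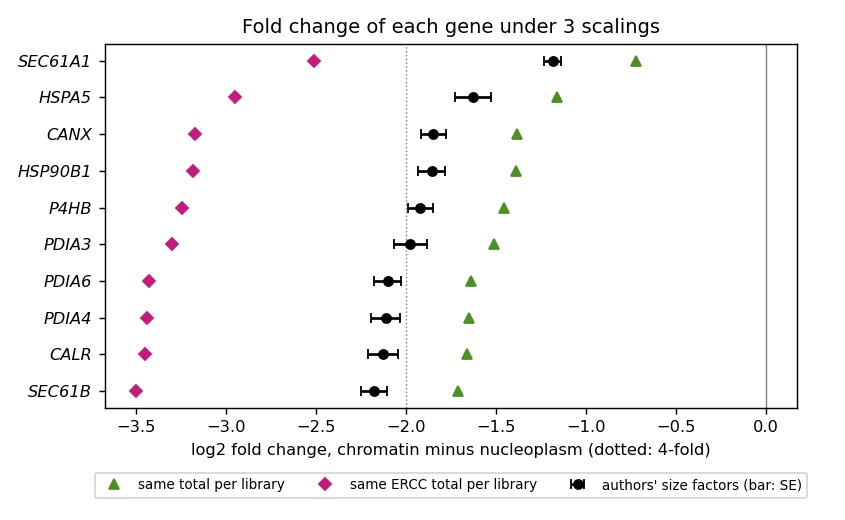
Log2 fold change of each ER gene, chromatin minus nucleoplasm, with the authors' size factors (black, bar: SE from limma), with the same total per library (green) and with the same ERCC total per library (magenta). All points lie below 0, and the dotted line marks a 4-fold difference.

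Promoter stretches are shown because these genes are known to be transcribed together through the ER stress element, a site through which the unfolded protein response acts on chaperone genes. The element is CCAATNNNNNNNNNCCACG, in which the left part binds NF-Y and the right part binds ATF6. Windows from 250 bases before to 50 bases after each start were taken from RefSeq on GRCh38.p14 and searched on both strands. Windows were given for 9 of the 10 genes, and 5 of these 9 held the element (HSPA5, HSP90B1, CALR, CANX and PDIA6). Of 35116 windows of the same length over all genes, 27 held it, or 0.0769%, and by gene these were 25 of 27305, or 0.0916%. The parts alone are common: CCAAT was in 34.6% of windows and CCACG in 38.1%. PDIA3 had no window, and PDIA4, P4HB, SEC61A1 and SEC61B had none with these letters. Of the genes named in the lists described later, XBP1, a transcription factor of the response, held it as well, and so did CRELD2 and ERO1B among 46 other ER genes with a window. A match is a description of the letters and not a bound site. The stretches are given 5′ to 3′ on the strand of the gene, with the letters of the element in capitals, and in CALR and in the second HSP90B1 copy they read on the opposite strand. The spans are chr9:125241371-125241429 for HSPA5, chr12:103930196-103930359 for HSP90B1, chr19:12938364-12938422 for CALR, chr5:179698758-179698816 for CANX and chr2:10812833-10812891 for PDIA6.
HSPA5: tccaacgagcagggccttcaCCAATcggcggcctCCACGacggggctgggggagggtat
HSP90B1: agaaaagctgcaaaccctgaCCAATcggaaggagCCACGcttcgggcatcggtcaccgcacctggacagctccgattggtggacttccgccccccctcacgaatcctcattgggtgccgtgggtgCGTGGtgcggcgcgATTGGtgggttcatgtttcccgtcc
CALR: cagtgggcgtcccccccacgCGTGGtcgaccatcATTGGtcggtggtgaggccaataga
CANX: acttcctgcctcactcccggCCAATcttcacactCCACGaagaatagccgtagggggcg
PDIA6: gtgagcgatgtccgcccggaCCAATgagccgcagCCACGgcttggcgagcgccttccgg

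Counted from the start base, the first base of the element as written above lay at -66 in HSPA5 and -86 in PDIA6. It lay at -225 in CALR and at -194 and -89 in HSP90B1. For CANX it lay at -151 from 1 of the 3 starts whose windows contain the element. At -225 in CALR and -89 in HSP90B1 that base belongs to the CCACG part, which reads on the opposite strand. Log2 fold changes ran from -2.12 (CALR) to -1.62 (HSPA5) in the 5 genes with the element, within the range of the 4 genes whose windows lack it, from -2.17 (SEC61B) to -1.18 (SEC61A1).

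HSPA5 encodes BiP, the HSP70 of the ER lumen, which binds unfolded chains and also gates the Sec61 channel. Its locus (MSTRG.34216, chr9:125234718-125241343, minus strand) had 10745, 8138 and 10504 normalized counts in chromatin replicates 1 to 3 and 30259.9, 30014 and 29663.5 in nucleoplasm. The lowest nucleoplasm value was well above the highest chromatin value, with chromatin replicate 2 the lowest of all. The means were 9796 ± 1441 (SD, n = 3) and 29979 ± 299.7 (SD, n = 3), and the difference was -1.62 on the log2 scale (adjusted p = 5.64e-07 by limma, SE 0.10).

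HSP90B1 encodes GRP94, the HSP90 of the ER lumen, which folds a narrower set of clients such as integrins and Toll-like receptors. It was the most abundant of the 10, at rank 107 of all genes by mean count. The locus (MSTRG.7685, chr12:103930107-103953645, plus strand) had 16818, 14424.5 and 17602.5 normalized counts in the chromatin libraries and 60022, 57923 and 58118 in nucleoplasm. All 3 nucleoplasm libraries were more than 3-fold above every chromatin library. The difference was -1.85 on the log2 scale (adjusted p = 5.03e-08 by limma, SE 0.08).

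CALR and CANX encode calreticulin and calnexin, the soluble and the membrane-anchored lectin chaperone. CALR (MSTRG.16516, chr19:12938578-12944489, plus strand) had 9639, 7913 and 9942 normalized counts in the chromatin libraries and 39781, 39279 and 40288 in nucleoplasm, which gave a log2 difference of -2.12 (adjusted p = 4.24e-08 by limma, SE 0.08). CANX (MSTRG.27312, chr5:179678628-179731641, plus strand) had 9447, 8449.8 and 10183 in chromatin and 33493, 33682 and 33529 in nucleoplasm, which gave a log2 difference of -1.85 (adjusted p = 3.19e-08 by limma, SE 0.07). The pair had similar chromatin values in each library, and their nucleoplasm values were apart, with CALR the higher. CALR passed the 4-fold minimum and CANX did not.

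Among the 4 protein disulfide isomerases, P4HB encodes PDI itself, which is also the beta subunit of prolyl 4-hydroxylase, and PDIA3 encodes ERp57, the partner of calnexin and calreticulin. P4HB (MSTRG.15195, chr17:81842831-81860920, minus strand) had 5847, 5031 and 6010.2 normalized counts in the chromatin libraries and 20895, 21392.5 and 21434 in nucleoplasm. PDIA3 (MSTRG.10487, chr15:43746410-43773278, plus strand) had 3787, 2874 and 3440.4 in chromatin and 13331, 13152 and 12946 in nucleoplasm. Neither gene overlapped between fractions, and neither reached 4-fold, at log2 fold changes of -1.92 (adjusted p = 2.77e-08 by limma, SE 0.07) and -1.97 (adjusted p = 1.00e-07 by limma, SE 0.09).

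PDIA4 encodes ERp72 and PDIA6 encodes P5, an isomerase that acts with BiP. PDIA4 (MSTRG.31597, chr7:149003062-149028662, minus strand) had 4165, 3393 and 4170.4 normalized counts in the chromatin libraries and 17067, 16364 and 16997 in nucleoplasm. PDIA6 (MSTRG.18034, chr2:10728962-10837977, minus strand) had 4953, 4083 and 4843 in chromatin and 19832.5, 20050.5 and 19439 in nucleoplasm. Both were lower in chromatin by more than 4-fold, at log2 fold changes of -2.11 (adjusted p = 3.75e-08 by limma, SE 0.08) and -2.10 (adjusted p = 2.54e-08 by limma, SE 0.07). The PDIA6 locus was assembled well past the annotated gene, which lies at chr2:10783391-10837977. Its Jaccard index, the shared length over the joint length of both spans, was 0.501, just over the minimum of 0.5, whereas the next lowest was 0.974. At a minimum of 0.8 it went unnamed and 9 genes were left, all lower.

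SEC61A1 encodes the pore of the translocon, and SEC61B encodes a small tail-anchored subunit beside it. SEC61A1 (MSTRG.23484, chr3:128051641-128071683, plus strand) had 6295, 6025 and 6640.3 normalized counts in the chromatin libraries and 14348.5, 14414 and 14297 in nucleoplasm. SEC61B (MSTRG.33985, chr9:99222064-99230615, plus strand) had 455, 386 and 392 in chromatin and 1899, 1811 and 1848 in nucleoplasm. The translocon pair thus held the smallest and the largest fold change of the 10 genes, -1.18 (adjusted p = 4.94e-08 by limma, SE 0.05) and -2.17 (adjusted p = 2.11e-08 by limma, SE 0.07).

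Replicates agreed more closely in nucleoplasm. The coefficient of variation of the 10 genes was 0.300% to 2.38% there and 4.88% to 14.7% in chromatin. The log2 difference of chromatin replicate 2 from the mean of the other two was -0.38 to -0.10, with a median of -0.26. Of genes called lower in chromatin, 64.5% also had their lowest chromatin value in that library. The ER genes took 0.144%, 0.130% and 0.154% of all normalized counts in chromatin and 0.378%, 0.377% and 0.370% in nucleoplasm.

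Ratios between genes of the same role do not depend on how libraries are scaled. Of 9 such pairs, 7 had ratios that did not overlap between fractions, beside 92.2% of all pairs of abundant protein-coding genes, so such a separation was usual. SEC61A1 over SEC61B was 15.5 ± 1.57 (SD, n = 3) in chromatin and 7.75 ± 0.202 (SD, n = 3) in nucleoplasm, a 1.99-fold difference. HSPA5 over HSP90B1 was 0.600 ± 0.0375 in chromatin and 0.511 ± 0.00703 in nucleoplasm. CALR over CANX was 0.978 ± 0.0420 in chromatin and 1.19 ± 0.0179 in nucleoplasm. These 3 ratios and those of PDIA3 to PDIA4 and to PDIA6, and of PDIA4 and PDIA6 to P4HB, gave p = 0.1 in a two-sided exact permutation test, the smallest that 3 against 3 libraries allow, and 0.129 after adjustment over the 9 pairs. PDIA4 over PDIA6 was 0.844 ± 0.0154 in chromatin and 0.850 ± 0.0304 in nucleoplasm (exact permutation p = 0.9), and PDIA3 over P4HB also overlapped (exact permutation p = 0.4). None of the 9 could pass 0.05 in this design.

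Levels between genes were compared per kilobase of the canonical transcript in GENCODE. In nucleoplasm the order was HSP90B1 (21096 ± 417 normalized counts per kilobase, SD, n = 3), CALR (20927 ± 266), P4HB (8716 ± 123), PDIA6 (8677 ± 136), HSPA5 (7646 ± 76.4), CANX (6829.7 ± 20.5), PDIA4 (6075 ± 140), SEC61A1 (4023 ± 16.4), PDIA3 (3571 ± 52.5) and SEC61B (3285 ± 78.2). The ratio of neighbours within a library was then compared, since all genes share the libraries. HSP90B1 over CALR ran from 0.986 to 1.03 and P4HB over PDIA6 from 0.985 to 1.03 over the 3 nucleoplasm libraries, so neither order was the same in all of them, while every other neighbour kept its place in 3 of 3. In chromatin HSP90B1 (5852 ± 595) and CALR (4821 ± 576) again led, and HSP90B1 was the higher in 3 of 3 libraries, by 1.19-fold to 1.25-fold. HSPA5 (2498 ± 368) stood in the third place, ahead of P4HB (2309.9 ± 215) in 3 of 3 libraries but by only 1.01-fold in the closest. PDIA6 (2030.1 ± 208), CANX (1904 ± 177) and SEC61A1 (1771 ± 86.4) followed, and each was above the next in 3 of 3 libraries, by 1.02-fold or more between these. PDIA4 (1413 ± 162), PDIA3 (915 ± 125) and SEC61B (729 ± 68.5) were last, with PDIA3 over SEC61B by 1.14-fold to 1.35-fold.

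Across the 10 genes, the fold change went with transcript length more than with level. Spearman's rho of the log2 fold change was 0.81 with exonic length, 0.41 with the number of exons, 0.12 with genomic span and 0.10 with the nucleoplasm level per kilobase, as a description over 10 genes that share the same 6 libraries. SEC61B, with the shortest transcript at 564 bases, had the lowest fold change. Over 7747 abundant protein-coding genes the same rho with exonic length was 0.39. Their median log2 fold change was -1.87 for transcripts under 1 kilobase (379 genes), -1.18 from 1 to 2 (1044 genes), -0.65 from 2 to 4 (2650 genes) and -0.17 over 4 (3674 genes). HSPA5, HSP90B1, PDIA3, PDIA4, PDIA6, P4HB and SEC61A1 belong to the 2 to 4 kilobase class and were all below its median. The part of transcript length in the fold changes was not tested.

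**Figure D3:**
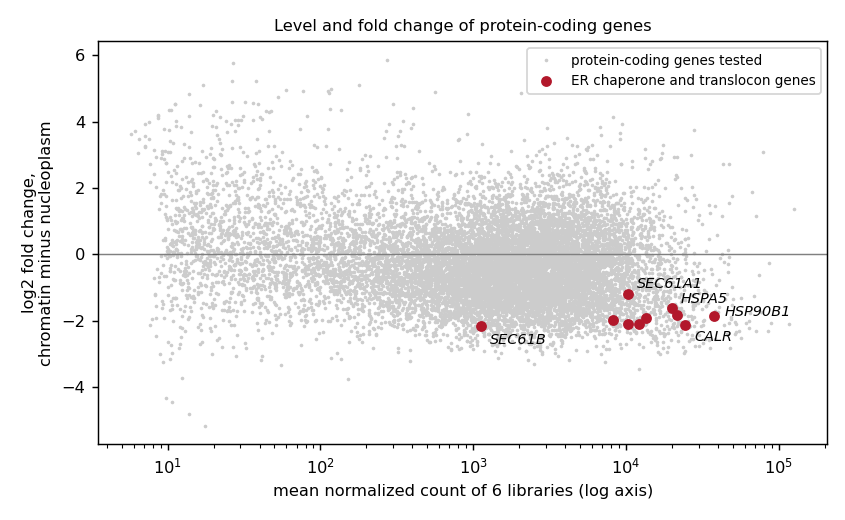
Log2 fold change, chromatin minus nucleoplasm, against the mean normalized count of the 6 short-read libraries (log axis) for all 12493 protein-coding genes tested (grey) and the 10 ER genes (red, 5 of them named). The red points lie in the lower part of the cloud, and SEC61B lies to the left of the others.

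Among protein-coding genes tested, the ER genes sat at percentiles 3.57 (SEC61B) to 23.3 (SEC61A1) of the log2 fold change. Genes of related roles were taken from lists for comparison, each described by its counts and its median beside -0.02 for all genes and -0.39 for protein-coding genes. Of 54 other ER folding and translocation genes, 47 were tested, 43 were lower in chromatin, 2 were higher and 2 were not called, with a median of -1.35. SDF2L1, a cofactor of BiP, was lowest at -2.79, and PPIB, the ER cyclophilin and the most abundant of the list, was at -2.19. STT3B, a catalytic subunit of oligosaccharyltransferase, was at -0.58, and TMX3, a transmembrane disulfide isomerase, was highest at 2.06. TMX1, another such isomerase, was at -0.19 and turned to 0.28 when libraries were given the same total. PDIA5, named after its value was seen, was the other gene called higher, at 0.51, and turned to -0.81 under the same ERCC total. Under the same total this list gave 36 lower and 8 higher, and under the same ERCC total 46 lower and 1 higher.

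**Figure D4:**
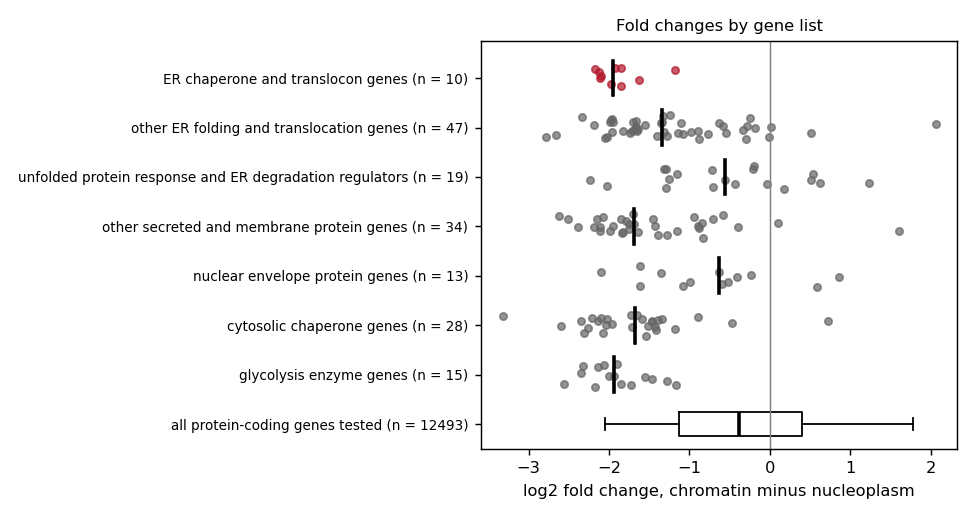
Log2 fold change, chromatin minus nucleoplasm, of every tested gene of each list (points) with the median of the list (black bar), and a box plot of all protein-coding genes tested (box: quartiles, whiskers: 5th and 95th percentiles). The medians of the ER genes, other secreted and membrane protein genes, cytosolic chaperones and glycolysis enzymes lie between -1.95 and -1.68, that of the other ER folding and translocation genes lies at -1.35, and those of the regulators and nuclear envelope genes lie nearer to 0.

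Of 21 regulators of the unfolded protein response and of ER-associated degradation, 19 were tested, 12 were lower, 5 were higher and 2 were not called, with a median of -0.56. These counts, 63.2% lower and 26.3% higher, were near those of abundant protein-coding genes, 62.3% and 29.4%. SYVN1, the ubiquitin ligase HRD1, was lowest at -2.24, and the transcription factors XBP1 and ATF4 were at -1.32 and -1.15. HERPUD1, a membrane component of the degradation machinery and a target of the response, was highest at 1.24, with means of 8713 in chromatin and 3698 in nucleoplasm. It turned to -0.09 under the same ERCC total, where 18 of the 19 were lower and 0 higher, and under the same total the counts were 9 and 8. These 5 higher genes (HERPUD1, EDEM1, PPP1R15A, DDIT3 and EIF2AK3) were named after their values were seen.

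Genes whose mRNAs are also translated at the ER, and genes translated in the cytosol, were set beside these. Of 38 other secreted and membrane protein genes, 34 were tested, 32 were lower and 1 was higher, with a median of -1.70. In this list BSG was lowest at -2.63, LMAN1, a cargo receptor, was at -0.71, and CD47 was highest at 1.60. Of 31 cytosolic chaperone genes, 28 were tested, 27 were lower and 1 was higher, with a median of -1.68 and 11 lower by more than 4-fold. HSP90AB1 was at -2.08, HSP90AA1 at -2.31 and HSPA8, the constitutive cytosolic HSP70, at -1.59. PFDN2, a prefoldin subunit, was lowest at -3.32, and DNAJB6 was highest at 0.72 and at -0.60 under the same ERCC total. Of 17 glycolysis enzyme genes, whose mRNAs are translated on free ribosomes, 15 were tested and 15 were lower, with a median of -1.94 and 7 lower by more than 4-fold. Their values ran from -2.56 for LDHB through -2.06 for ENO1 and -1.73 for PKM to -1.17 for HK2. The medians of the ER genes, secreted and membrane protein genes, cytosolic chaperones and glycolysis enzymes lay within 0.27 of each other on the log2 scale, while that of the other ER folding and translocation genes was 0.60 above that of the 10 ER genes. Differences between the lists were not tested, and whether nuclei carried ER-bound mRNA was not tested beyond these values.

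Nuclear envelope protein genes had a median of -0.63. Their list mixes membrane proteins with the lamins LMNA, LMNB1 and LMNB2, which are not membrane proteins of the ER. Of 14, 13 were tested, 11 were lower and 2 were higher. LMNB2 was at -2.10, NUP210 at -1.36, TMPO at -1.08 and LEMD3 at 0.86, and LEMD3 turned to -0.47 under the same ERCC total, where 13 of the 13 were lower.

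The 5 protein-coding genes whose profile over the 6 libraries was most like the mean profile of the ER genes were IDH2, GRB2, CKAP4, COX7C and IGFBP2. Likeness was the root mean square difference of centred log2 values, which ran from 0.0166 for IDH2 to 0.0243 for IGFBP2. Their log2 fold changes were -1.89, -1.91, -1.90, -1.87 and -1.86 in that order. CKAP4 is an ER membrane protein and IGFBP2 is secreted, whereas IDH2 and COX7C are mitochondrial proteins encoded in the nucleus and GRB2 is a cytosolic adaptor.

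Loci that overlap the 10 genes were checked, since reads could be shared. The spans of 12 other loci met the annotated spans of the ER genes, and none had a Jaccard index of 0.5 or more with them. The stretch of the assembled PDIA6 locus past the annotated gene was not searched. ATP6V1C2, on the opposite strand, runs into that stretch and had means of 226 in chromatin and 265 in nucleoplasm. On the same strand, HMGB3P22 within CANX reached at most 7.21 normalized counts in a library and RNU7-176P within PDIA6 was at 0. On the opposite strand, UQCC6, which overlaps the end of HSP90B1, had 1116, 1059 and 1104 in chromatin and 754, 772 and 795 in nucleoplasm. It was higher in chromatin by 0.50 (limma, adjusted p = 1.75e-05), the direction opposite to HSP90B1, but turned to -0.82 under the same ERCC total. RUVBL1, which overlaps SEC61A1, was at -1.72 in log2 fold change.

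Reads of some of these genes may also be split with near-identical copies. HSPA5P1, a processed pseudogene of HSPA5, had 395 ± 65.2 normalized counts in the chromatin libraries and 1056 ± 10.3 in nucleoplasm (SD, n = 3), equal to 4.03% and 3.52% of the HSPA5 count, and its log2 fold change was -1.43. PDIA3P2 had 30.2 ± 5.41 and 156 ± 10.3, equal to 0.898% and 1.19% of PDIA3. HSP90B2P and HSP90B3P, named after their values were seen, had means of 453 and 23.7 in chromatin and 627 and 81.3 in nucleoplasm. PDIA3P1, another copy of PDIA3, was not named in the short-read table. The counts of HSPA5, PDIA3 and HSP90B1 are uncertain for this reason, and how many reads the copies share was not tested.

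In the long-read chromatin libraries, where values are TPM per transcript and were summed per gene, all 10 genes were above 0 in both replicates. The median of their mean TPM was 95.5, and it was 62.3 in replicate 1 alone and 116 in replicate 2 alone. HSP90B1 had 342 and 345 TPM, close between replicates, and was again the highest of the 10. CALR had 112 and 218, P4HB 125 and 114, and CANX 79.4 and 138 TPM. PDIA3 had 55.3 and 149, PDIA6 60.4 and 118, and PDIA4 64.2 and 58.3 TPM. HSPA5 had 57.0 and 64.7, SEC61B 54.9 and 92.3, and SEC61A1 was lowest at 46.2 and 35.1 TPM. The second replicate was higher for 7 of 10 genes, and its ratio to the first ran from 0.759 (SEC61A1) to 2.69 (PDIA3). TPM holds no depth, and with 2 libraries of 1 group no test was made, so the order of the middle genes is not fixed by these values. Spearman's rho of the mean TPM with the short-read chromatin level per kilobase was 0.54 over the 10 genes.

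Of 87 transcripts listed for the 10 genes, 43 were above 0 in at least 1 library and 31 in both. The main transcript was the same in both replicates for HSPA5 (HSPA5-201, 48.8 and 63.6 TPM), CALR (CALR-201, 103 and 209), CANX (CANX-202, 67.0 and 107), PDIA4 (PDIA4-204, 50.0 and 55.9), PDIA6 (PDIA6-201, 60.0 and 118) and SEC61B (SEC61B-203, 54.9 and 88.6), all annotated as protein-coding. For P4HB it was P4HB-220, annotated as a target of nonsense-mediated decay, at 99.4 and 102 TPM. For the remaining genes the main transcript changed between replicates. PDIA3-201 had 35.8 and 14.7 TPM, and PDIA3-202, annotated as a target of nonsense-mediated decay, had 0 and 94.7. SEC61A1-201 had 40.8 and 3.51, and SEC61A1-203 had 0 and 27.0. Within HSP90B1, HSP90B1-209, annotated as a retained intron, had 127 and 0, an assembled transcript (MSTRG.18286.3) had 0 and 186, and another (MSTRG.18286.8) had 165 and 123 TPM. Transcript types are those of GENCODE release 44, while the paper's assembly was guided by an earlier release. The deposited span of HSP90B1-209, chr12:103943619-103947430, is shorter than its 5608 exonic bases in release 44, so an annotated form can differ from the one quantified.

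The long-read table also listed transcripts over these genes on the opposite strand. The paper states that direct cDNA libraries lose the strand of origin, whereas its short-read libraries keep it. It attributes long-read transcripts assembled opposite to the reference to that loss. Such a transcript, with a span at a Jaccard index of at least 0.5 with the gene, was present for 9 of 10 ER genes, all but PDIA6, and the short-read table had one for 0 of 10. As background, 3487 of 3592 protein-coding genes with a mean of at least 20 TPM were left after a filter on annotated genes of the other strand. Of these, 52.7% had one in long reads and 0.172% in short reads. Partial overlaps on the opposite strand, such as UQCC6 with HSP90B1 and RUVBL1 with SEC61A1, were kept among the ER genes. HSPA5 had 57.0 and 64.7 TPM on its own strand and 151 and 166 on the opposite one, so 72.5% and 71.9% of the joint TPM was opposite. CALR had 122 and 282 TPM opposite, or 52.1% and 56.4%. HSP90B1 had 185 and 252 TPM opposite, or 35.1% and 42.2%, and CANX had 71.3 and 70.0, or 47.3% and 33.7%. The others with such a transcript ranged from 12.0% (P4HB, replicate 2) to 34.1% (PDIA4, replicate 2). Over the 1838 background genes that had one, the median share was 28.2%, with quartiles of 17.8% and 41.0%.

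**Figure D5:**
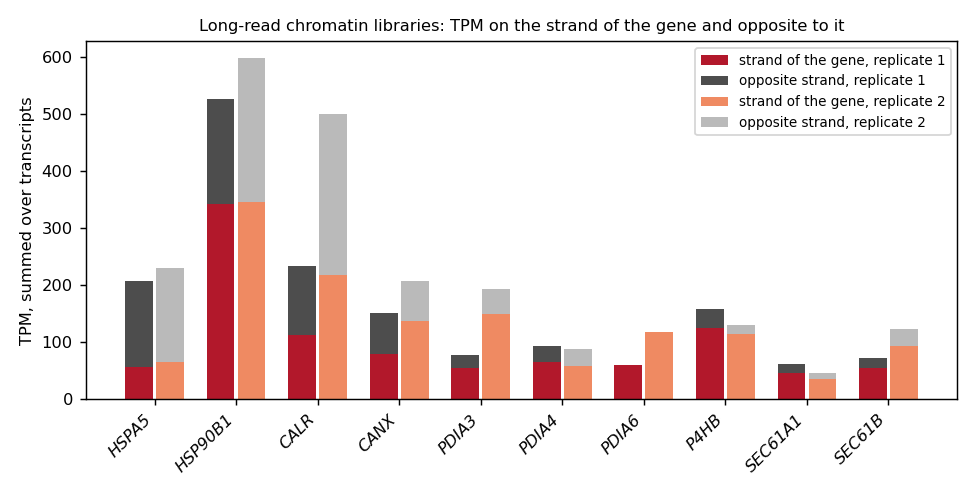
TPM of each ER gene in the 2 long-read chromatin libraries, summed over transcripts on the strand of the gene (red, orange) and stacked with transcripts of similar span on the opposite strand (dark and light grey). The grey part exceeds the colored part for HSPA5 and CALR in both replicates and is absent for PDIA6.

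With both strands added, the median of the 10 genes was 140 TPM, and Spearman's rho with the short-read chromatin level per kilobase was 0.71. Whether the deposited long-read table was made before or after strands were assigned to the reads is not stated in the sources used here, and the source of the opposite-strand transcripts was not tested.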

How the data were processed

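Per the labels and the methods of the study, the authors aligned short reads with HISAT2 2.1.0 to hg38 with ERCC sequences, assembled and quantified them with StringTie, and divided the counts by DESeq2 size factors. The deposited short-read signal is this normalized count per gene. In each library 100% of the values above 0 were whole multiples of the smallest, within 0.01 counts, so counts were recovered for the edgeR and DESeq2 fits. For long reads, the authors deposited transcript TPM from minimap2 and StringTie, and TPM holds no depth.

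Genes were named from GENCODE release 44 by stable identifier or, for assembled loci, by the same-strand gene of largest span Jaccard index (at least 0.5). Tests were run on the 26066 genes that reached 10 normalized counts in 3 or more libraries and spanned over 200 bases. limma 3.58.1 in R 4.3.3, with a mean-variance trend and no covariate, was fitted to log2(normalized count + 1) of the 6 short-read libraries, with ERCC standards left out. This understates the change of low genes. The limma p-values set the difference between fractions against the spread among the libraries of 3 cultures. That spread was pooled over both fractions and drawn toward a trend over all genes tested. Alternatives were fits of recovered counts in edgeR 4.0.16 or DESeq2 1.42.0, other scalings, filters and pseudocounts, a replicate block, and fits without each library. The fit was tested on simulated data. The genes and lists were chosen with earlier results of these data known. Of each list, the lowest, the highest and the 3 most abundant genes were named, except 1 gene that is not reported here, and others are said to be named after their values were seen. The ratios within a role, the opposite-strand sums, the abundant background, transcript features and the promoter element were added after seeing the data.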

Additional observations from a re-analysis of the deposited data

How the results depend on the processing

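The 10 ER genes stayed lower in chromatin, at an adjusted p of at most 8.75e-06, in all 179 values from the alternatives tried, and 0 were called higher in any. Of these values, the 9 at a Jaccard minimum of 0.8 repeat the main fit and add no check. Adding loci inside the gene spans changed the fold change of CANX alone. The scale of the libraries moved the size. With the same total per library the median log2 fold change was -1.48, 0 of the 10 genes and 999 genes in all were lower by more than 4-fold, and 61.3% of all calls were on the higher side against 49.4% with the authors' size factors. With the same ERCC total the values were -3.27, 10, 8994 and 25.9%. A 2-fold minimum gave 10 and 7006. DESeq2 gave a median of -1.85. Leaving out each library in turn gave medians from -2.01 to -1.85, the latter without chromatin replicate 2, and 4 to 5 of the 10 genes past 4-fold. Adding opposite-strand transcripts raised the median long-read TPM from 95.5 to 140, and it was 62.3 or 116 with either library left out. With the replicate number as a block the median stayed at -1.95, and 11748 genes in all were lower, of which 2218 by more than 4-fold, against 11775 and 2208 without it. Same-numbered fractions deviated together only weakly (r of 0.0871, 0.0533 and 0.0626), although each chromatin library correlated best with its own number. By the methods of the study, both fractions came from independent cultures, so equal numbers may mark pairs, which the labels do not state. The main fit left such pairing out, and the block changed no call of an ER gene. TPM holds no depth, so no counting error is given for the long reads.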
